A study of Mus musculus with 16 samples.

Results

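RUNX2 sites of MC3T3-E1 cells, a mouse pre-osteoblast line from the calvaria, were compared between undifferentiated cells and cells in osteogenic culture. The sites were all peaks of the RUNX2 chromatin immunoprecipitation and sequencing (ChIP-seq) lists of vehicle-treated cells, without those on the mitochondrial chromosome. They numbered 12661 in undifferentiated and 6272 in differentiated cells, 18933 of the 314862 regions in the 14 lists of the series. The series covers 7 antibodies in both states, against RUNX2, the leucine zipper factor C/EBPβ and 5 histone modifications, and it has 2 input samples that entered no comparison. Undifferentiated cells grew in the basal medium. Differentiated cells were kept for 15 days in that medium with ascorbic acid at 50 µg/mL and glycerol-2-phosphate at 10 mM. Both states received ethanol vehicle for 3 h, were used at passages 5 to 12 and were precipitated with the same RUNX2 antibody (Santa Cruz, M-70). Differentiated cultures had laid down mineralised matrix, which was removed by homogenisation and a sucrose spin before chromatin was prepared, a step that undifferentiated cells did not need. The differentiated list therefore differs from the undifferentiated one in state and in this step, and their effects cannot be told apart.

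Each state has 1 list, deposited under a name that calls it the overlap of replicates. How many replicates there were, and whether they were separate cultures, is not given in the labels. No difference between the states had a replicate check and no p-value was computed. Read depth is unknown, so a longer list and a deeper or better enriched library cannot be told apart. Shares are given with exact Clopper-Pearson 95% intervals and differences of shares with Newcombe 95% intervals, which cover counting error only. C/EBPβ sites of the same cells, 15622 before and 10847 after differentiation, were measured in the same way and are given beside them. Differences between the factors were not tested.

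RUNX2 is a runt-domain transcription factor that binds DNA together with its partner CBFB at the hexamer TGTGGT. It is needed for bone formation: it commits mesenchymal precursors to the osteoblast lineage and acts at genes of the bone matrix, such as those of type I collagen, osteopontin and bone sialoprotein. Its binding sites lie both at promoters and at distal enhancers, and enhancers of lineage genes often hold several sites next to each other.

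The histone lists were used to check the cell type. H3K4me3, a mark of active promoters, lay at a start site of 6 of 10 osteoblast markers before and after differentiation, and H3K36me3, a mark of transcribed gene bodies, covered at least 50% of the body of 7 before and 8 after. Bglap, the osteocalcin gene, and Alpl, the alkaline phosphatase gene, had neither mark in either state. Ibsp, the bone sialoprotein gene, had neither before differentiation. Of 8 chondrocyte markers, Sox9 alone had H3K4me3, and H3K36me3 covered at least 50% of 3 before and 2 after. No marker of adipocytes, muscle, blood, endothelium or neurons had H3K4me3 at a start site or H3K36me3 over at least 50% of its body in either state.

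Of the undifferentiated RUNX2 sites, 63.5% had no differentiated site that overlapped them by at least 1 bp, and such sites are called lost. The others are called kept. Of the differentiated sites, 26.2% had no undifferentiated partner and are called gained. For C/EBPβ the lost share was 56.9%. What follows is where along the genome the kept, lost and gained RUNX2 sites lay.

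The sequences of 8 kept and lost sites beside bone matrix and signalling genes are shown as examples of what the deposited sites hold and where in them the RUNX hexamer lies. Positions are in mm9 (NCBIM37), on the plus strand, and capitals mark TGTGGT or its reverse complement ACCACA. They were chosen among the sites of 12 bone genes that overlap no exon, 4 kept and 4 lost with the highest merged-peak numbers (ties by position), and no gained site of these genes met that condition.
Col1a1, kept, chr11:94742513-94742713: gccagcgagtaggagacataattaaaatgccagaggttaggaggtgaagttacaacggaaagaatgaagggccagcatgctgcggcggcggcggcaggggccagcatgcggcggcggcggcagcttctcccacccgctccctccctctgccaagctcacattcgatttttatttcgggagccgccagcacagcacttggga
Alpl, kept, chr4:137300574-137300774: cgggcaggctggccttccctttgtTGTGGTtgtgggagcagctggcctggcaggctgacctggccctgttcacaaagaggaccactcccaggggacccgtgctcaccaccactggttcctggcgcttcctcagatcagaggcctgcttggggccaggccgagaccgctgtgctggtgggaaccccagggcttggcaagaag
Alpl, kept, chr4:137349637-137349837: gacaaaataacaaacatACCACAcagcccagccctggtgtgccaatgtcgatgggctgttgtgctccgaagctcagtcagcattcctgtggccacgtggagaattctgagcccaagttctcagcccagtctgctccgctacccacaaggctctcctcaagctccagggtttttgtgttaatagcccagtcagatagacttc
Ibsp, kept, chr5:104684549-104684749: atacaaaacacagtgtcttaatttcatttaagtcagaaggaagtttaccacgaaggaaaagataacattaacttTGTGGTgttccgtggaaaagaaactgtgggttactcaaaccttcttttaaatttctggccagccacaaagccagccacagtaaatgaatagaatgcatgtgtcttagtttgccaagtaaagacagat
Tnfsf11, lost, chr14:78784272-78784472: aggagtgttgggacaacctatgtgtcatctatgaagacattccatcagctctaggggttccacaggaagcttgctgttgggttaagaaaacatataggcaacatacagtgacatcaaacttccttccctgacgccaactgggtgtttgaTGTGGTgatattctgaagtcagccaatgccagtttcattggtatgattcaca
Alpl, lost, chr4:137304781-137304981: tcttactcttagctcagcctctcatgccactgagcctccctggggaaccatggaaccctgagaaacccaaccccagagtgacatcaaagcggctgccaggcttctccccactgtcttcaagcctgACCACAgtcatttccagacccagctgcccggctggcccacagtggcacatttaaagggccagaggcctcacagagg
Alpl, lost, chr4:137348763-137348963: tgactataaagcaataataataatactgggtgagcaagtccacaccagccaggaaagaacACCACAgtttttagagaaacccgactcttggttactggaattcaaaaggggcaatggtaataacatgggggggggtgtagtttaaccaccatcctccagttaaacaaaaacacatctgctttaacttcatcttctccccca
Spp1, lost, chr5:104820065-104820265: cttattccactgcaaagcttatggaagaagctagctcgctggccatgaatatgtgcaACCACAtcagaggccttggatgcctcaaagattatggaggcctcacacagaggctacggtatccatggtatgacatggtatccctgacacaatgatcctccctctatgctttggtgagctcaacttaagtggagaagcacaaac
The kept Col1a1 site, 54.9 kb upstream of the gene, has no hexamer, and the other 7 have 1 each. The hexamer lies 23.5 (Ibsp), 73.5 and 80.5 bp (Alpl) from the centre in the kept sites, and 27.5 and 37.5 (Alpl), 40.5 (Spp1) and 51.5 bp (Tnfsf11) from it in the lost ones. The lost and the kept Alpl sites at 3.28 kb and 2.41 kb from the upstream start of Alpl are neighbours, both intronic, and both hold a hexamer. Among these 8 sites the hexamer therefore did not separate kept from lost.

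RUNX2 sites stood close together in both states, and the gaps widened in proportion to the shorter list. The median gap between the centres of neighbouring sites was 47.3 kb in undifferentiated cells, with quartiles of 11.5 and 143 kb, and 91.3 kb in differentiated cells, with quartiles of 22.2 and 304.3 kb. The ratio of the medians was 1.93, beside 2.02 times as many sites before as after. Divided by the mean gap of its own list, the median gap was 0.235 in undifferentiated and 0.226 in differentiated cells, so most gaps of either list were far below its mean and a few were very long. The share of gaps below 0.1 times the mean gap was 33.0% and 33.7%. The C/EBPβ lists gave 0.239 and 0.248 for the scaled median, close to the RUNX2 values. The longest stretch without a RUNX2 site lay on chromosome X in both states, 20.7 Mb before and 21.7 Mb after differentiation.

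Very close neighbours became rarer, and a fixed 1 kb limit takes in a smaller share of gaps when a list is sparser. Gaps of up to 1 kb, the size of 1 promoter or enhancer, were 7.46% (7.01 to 7.93) of the gaps in undifferentiated and 4.70% (4.19 to 5.26) in differentiated cells. For C/EBPβ they were 7.35% and 4.58%. The closest neighbours were 209 bp and 222 bp apart, just beyond the width of a site, so no sites of 1 list overlapped.

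**Figure D1:**
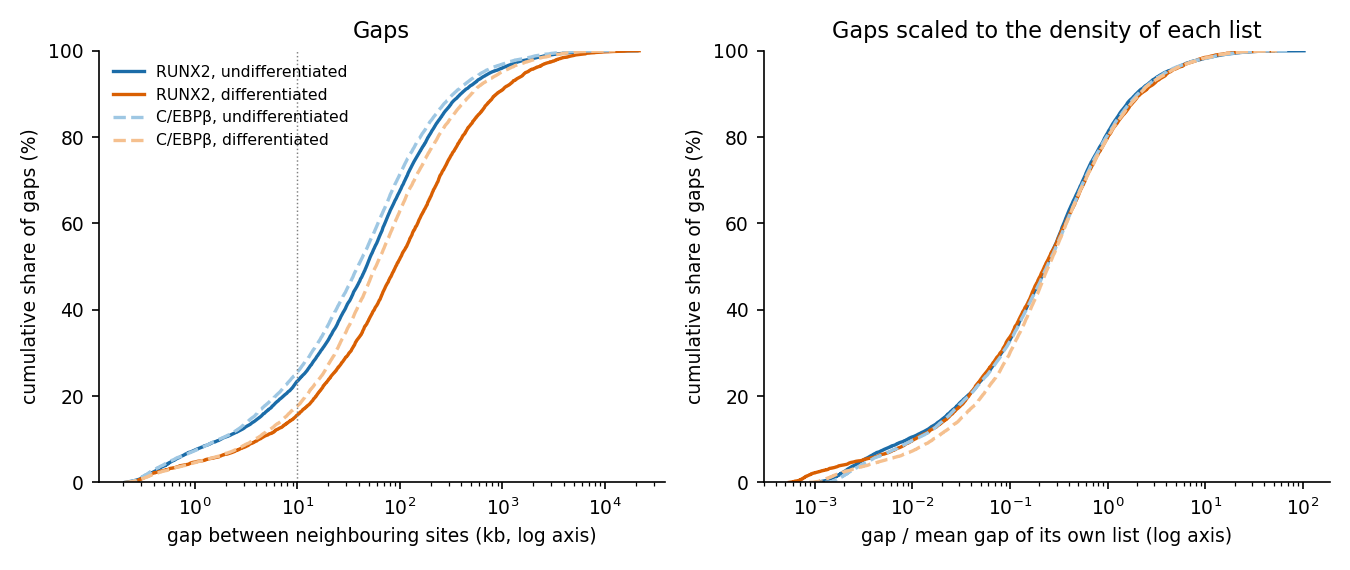
Cumulative share of the gaps between neighbouring sites of each list, in kb on a log axis (left, dotted line at the 10 kb used to chain sites into clusters) and divided by the mean gap of the same list (right). The differentiated RUNX2 curve is shifted to wider gaps, with medians of 47.3 and 91.3 kb, and after scaling the 2 RUNX2 curves nearly coincide, with medians of 0.235 and 0.226.

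The fates of neighbouring sites were mixed even at close range. Of 482 neighbouring pairs of undifferentiated sites up to 0.5 kb apart, both sites were kept in 75 pairs, both lost in 218 and 1 of them kept in 189. At 1 to 5 kb both were kept in 17.0% (14.9 to 19.3) of 1135 pairs, and beyond 100 kb in 11.02% (10.08 to 12.02) of 4110 pairs. The share of single sites kept also differed between these pairs, at 38.8% and 33.5%, and it alone moves the share of pairs with both kept. The share of pairs with 1 site kept and 1 lost stayed between 39.2% and 48.6% in every distance class. Mixed pairs arise at any such kept share per site, so these shares are given as a description.

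Sites were chained into clusters wherever neighbours lay up to 10 kb apart. In undifferentiated cells 39.9% (39.1 to 40.8) of the sites were in 2095 clusters of 2 or more, and in differentiated cells 27.7% (26.6 to 28.8) were in 763 clusters, a difference of -12.2 percentage points (-13.6 to -10.8). A fixed 10 kb chain joins fewer sites when a list is sparser, and C/EBPβ moved by -10.9 points (-12.1 to -9.72). Clusters of 5 or more sites fell from 59 to 11, and the largest held 10 sites before and 6 after. Clusters spanned a median of 3.93 kb and 3.51 kb.

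Clustered RUNX2 sites were kept slightly more often than single ones. Of sites in clusters 38.7% (37.4 to 40.1) were kept, and of single sites 34.9% (33.87 to 36.02), a difference of 3.81 points (2.09 to 5.53). Among sites farther than 1 kb from a transcription start site (TSS) it was 2.49 points (0.485 to 4.49). For C/EBPβ the sign was the other way, at -4.30 points (-5.86 to -2.73). Among undifferentiated RUNX2 sites in clusters of 5 or more, 41.0% (35.8 to 46.4) of 346 sites were kept, and the intervals of clusters of 2, 3, 4 and 5 or more overlapped. Whole clusters seldom kept every site: of the 59 clusters of 5 or more, 1 kept all of its sites, 55 kept some and 3 kept none. Large clusters kept in part arise at any such fixed kept share per site, so these counts are given as a description.

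The surroundings of the sites changed with cluster size. H3K9Ac, an acetylation of active regulatory chromatin, covered 48.1% of single undifferentiated sites, 60.2% of those in pairs and 87.3% (83.3 to 90.6) of those in clusters of 5 or more. C/EBPβ overlapped 29.2% (28.2 to 30.2) of single sites and 43.9% (38.6 to 49.3) of sites in clusters of 5 or more. H4K5Ac, another acetylation, covered 95.7% of single sites, all 496 sites in clusters of 4 and all 346 in clusters of 5 or more. Clusters with many RUNX2 sites were thus more often acetylated at H3K9 and more often shared with C/EBPβ, and whether either bears on the fate of a site was not tested.

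The largest undifferentiated clusters, of 10 sites each, lay at Hhat, Rara and Plec. At Hhat, which encodes the acyltransferase of hedgehog ligands, 10 sites spanned 44.4 kb (chromosome 1, 194605118 to 194649519) and 5 were kept, with 2 gained sites in the same stretch. At Rara, encoding retinoic acid receptor alpha, 10 sites spanned 21.2 kb (chromosome 11, 98792058 to 98813291), and 3 were kept. At Plec, encoding the cytoskeletal linker plectin, 10 sites spanned 19.2 kb (chromosome 15, 76018835 to 76038008), with 5 kept and 5 of the 10 within 1 kb of a TSS. The next 4 clusters, of 8 sites, were at Sdc4, which encodes the heparan sulphate proteoglycan syndecan-4, with 3 sites nearer to Sys1 (5 of 8 kept), Tomm20 (4 of 8), Tns3, encoding the focal adhesion protein tensin 3 (5 of 8), and Cuedc1 (6 of 8).

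One large cluster was absent from the differentiated list. In undifferentiated cells 7 sites stood within 7.94 kb (chromosome 11, 94956095 to 94964035), 4 of them nearest Dlx3, a homeobox factor gene of osteoblasts, and 3 nearest the integrin gene Itga3, and no RUNX2 site was listed there in differentiated cells. All 7 lay in H4K5Ac regions before differentiation and none in H3K4me3. The clusters of 7 at Tsga14 and at Tcte2 kept 3 and 4 sites. Of the 10 clusters named here the other 9 kept between 3 and 6 sites.

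In differentiated cells the largest clusters had 6 sites, at Plekhm3 beside the Wnt receptor gene Fzd5 and at Hhat. Among the clusters of 5 sites, Wnt10a (chromosome 1, 74849704 to 74854979), the gene of a Wnt ligand, held 5 sites in 5.28 kb, every one already present before. The same was true of the 5 sites at Sdc4 and the 5 at Cuedc1. At Prex1, encoding a Rac exchange factor, 3 of 5 were gained, and at Ctdsp1 2 of 5. Over all differentiated clusters of 5 or more, 73.7% (60.3 to 84.5) of 57 sites were already present, beside 73.9% of single sites.

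Of the 10 differentiated clusters named by size, 1 held gained sites alone, 5 of them. It lay at the predicted gene Gm10716 and 4 neighbouring predicted genes in the first assembled bases of chromosome 9 (3017450 to 3035194), a chromosome whose sequence starts at 3000001 in mm9. Within 50 kb of that start the differentiated lists had 6 RUNX2 and 3 C/EBPβ sites and the undifferentiated lists none of either. All 5 marks had regions there in differentiated cells, and all but H4K5Ac in undifferentiated cells. The sites there are in all counts given here.

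The name of each site gives the number of peaks merged into it. It was 2 for 94.2% of undifferentiated and 97.7% of differentiated RUNX2 sites, and 3 or more for 5.80% (5.397 to 6.219) and 2.28% (1.93 to 2.68), a difference of -3.52 points (-4.06 to -2.96). For C/EBPβ the difference was -1.66 points (-1.97 to -1.35). The highest number was 6, at an undifferentiated site 78.0 kb from Akr1d1, the gene of a steroid reductase, and it was lost. The highest differentiated number was 5, at a kept site at -157.9 kb (upstream) of Mme, the gene of the peptidase neprilysin. Of the 6 undifferentiated sites at 5, 4 were nearest Nmnat2, Mettl15, C330006K01Rik and Tnrc18, and the Nmnat2 site alone was kept of all 6.

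The merged-peak number did not sort undifferentiated sites by fate. Sites with 3 or more were kept in 34.9% (31.4 to 38.5) and sites with 2 in 36.6% (35.7 to 37.4), a difference of -1.68 points (-5.15 to 1.94), which does not show that they are alike. Looking back from differentiated cells there was a difference: 86.0% (79.2 to 91.2) of the 143 sites with 3 or more were already present, against 73.6% (72.4 to 74.7) of sites with 2. A high number was rarely carried over. Of the 256 kept sites with 3 or more before, 15 had 3 or more after, or 5.86% (3.32 to 9.48), and of the 4360 kept sites with 2 before it was 2.52% (2.08 to 3.03).

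Loss was heaviest at promoters. The median distance from a site to the nearest TSS was 14.2 kb in undifferentiated and 19.1 kb in differentiated cells. Sites within 1 kb of a TSS went from 3282 to 1166, a ratio of 0.355, and sites at 50 to 100 kb from 1442 to 836, a ratio of 0.580. Promoter sites were kept in 28.5% (26.9 to 30.0) and distal sites in 39.3% (38.3 to 40.2), a difference of 10.8 points (8.95 to 12.6). From 1 kb outward the share rose little, from 36.9% at 1 to 5 kb to 41.1% at 50 to 100 kb, and was 38.8% beyond 100 kb. The step was thus mainly between promoters and the rest.

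The C/EBPβ kept share went the other way, although its promoter sites also fell more in number. Its promoter sites were kept in 46.9% (44.8 to 49.0) and its distal sites in 42.4%, a difference of -4.45 points (-6.66 to -2.25), while the ratio of numbers was 0.601 at promoters and 0.710 at distal sites. Gains of both factors were rarer at promoters: 80.4% (78.1 to 82.7) of differentiated RUNX2 promoter sites were already present against 72.3% (71.1 to 73.5) of distal ones, and for C/EBPβ 78.0% against 59.8%. Gained RUNX2 sites lay farthest out, at a median of 24.1 kb from a TSS and with 13.9% at promoters, against 17.7 kb and 20.2% for kept and 11.6 kb and 29.2% for lost sites.

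The position of promoter sites relative to the start was nearly the same in both lists. Of promoter sites, 68.8% (67.2 to 70.4) were upstream of the TSS in undifferentiated and 68.9% (66.1 to 71.5) in differentiated cells, with median positions of -62 and -54 bp. Upstream promoter sites were kept in 29.3% (27.4 to 31.2) and downstream ones in 26.6% (23.9 to 29.4), with overlapping intervals. Introns held 34.4% of kept, 30.3% of lost and 36.3% of gained sites, and exons outside promoters 1.99% to 2.74% of each class.

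**Figure D2:**
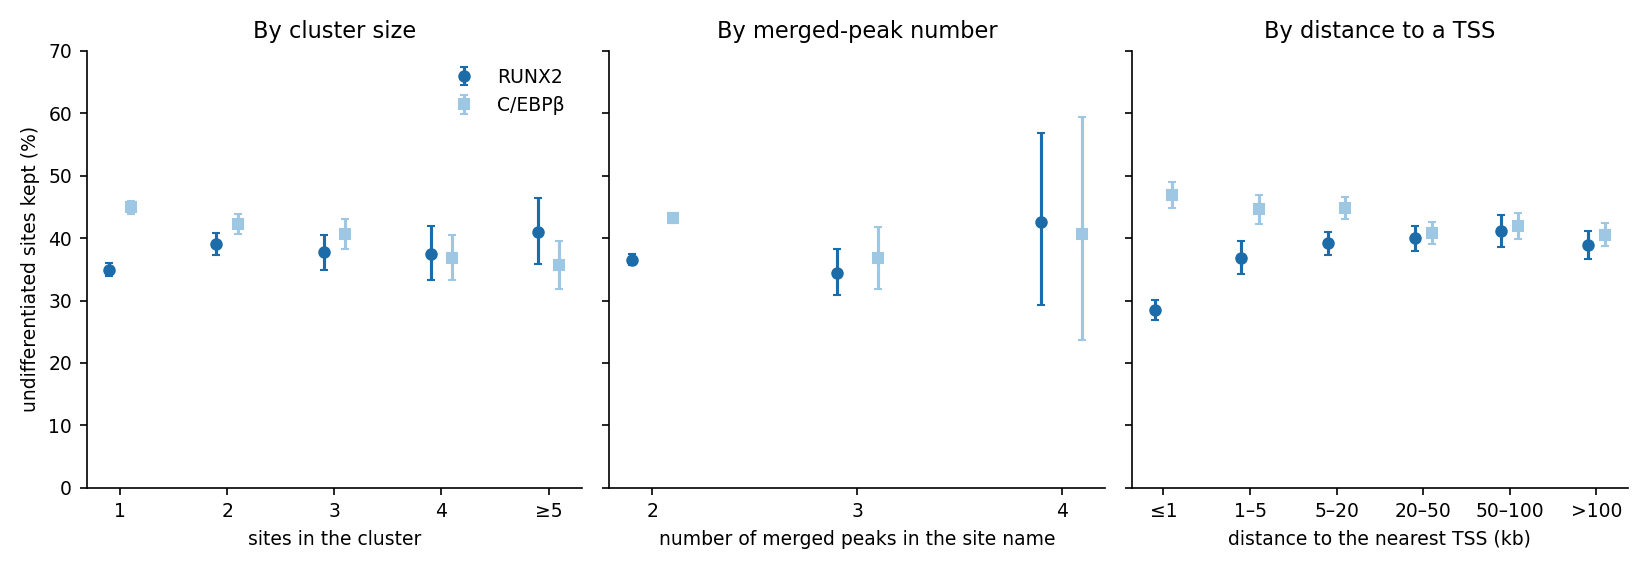
Share of undifferentiated sites kept (percent, bars are exact 95% intervals) by cluster size, by the number of merged peaks and by distance to the nearest TSS, for RUNX2 (circles) and C/EBPβ (squares). RUNX2 promoters stand lowest at 28.5%, while C/EBPβ promoters stand at 46.9%, and single RUNX2 sites at 34.9% are below clustered ones while the order is the other way for C/EBPβ.

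The centres of most kept sites lay close together in both lists. Between the states the centres of kept RUNX2 sites differed by a median of 33 bp, with quartiles of 16 and 58 bp, and 315 of 4616 moved by more than 100 bp. C/EBPβ centres differed by a median of 16 bp. Short moves did not make up the losses: 246 of 8045 lost sites had a differentiated site within 0.5 kb, and only 54 pairs of a lost and a gained site were that close. The median distance from a lost site to any differentiated site was 55.1 kb.

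Gained sites lay mostly apart from earlier binding, yet often in the same neighbourhood. Of 1641 gained sites, 32.0% (29.7 to 34.3) were within 10 kb of an undifferentiated site and 82.2% (80.3 to 84.0) within 100 kb. The median gap between undifferentiated sites was itself 47.3 kb, and the shares for random positions were not measured. Of the 525 within 10 kb, the nearest undifferentiated site was kept for 276 and lost for 249. The kept share was thus 52.6% (48.2 to 56.9), beside 36.5% of all undifferentiated sites. For C/EBPβ 31.3% of gained sites were within 10 kb of an undifferentiated one.

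The RUNX hexamer was more frequent in kept than in lost sites. TGTGGT, searched on both strands over the whole site, was in 59.1% (57.7 to 60.6) of kept, 47.2% (46.1 to 48.3) of lost and 58.0% (55.6 to 60.4) of gained sites. The windows of the same length 1 kb to each side held it in 15.0%, 14.9% and 15.4%, and the reversed letters TGGTGT were in 12.7% of undifferentiated and 13.1% of differentiated sites. Kept exceeded lost by 11.9 points (10.1 to 13.7). At promoters, where fewer sites had the hexamer, the shares were 32.2% of kept and 20.6% of lost, and at distal sites 66.0% and 58.2%, differences of 11.6 points (8.24 to 15.1) and 7.76 points (5.76 to 9.75). So the difference was present on both sides of the promoter boundary.

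Turned around, undifferentiated sites with the hexamer were kept in 41.8% (40.6 to 43.0) and sites without it in 30.8% (29.6 to 31.9). The lowest share was at promoters without it, 25.4% (23.6 to 27.1) of 2497 sites. Of these 2497 sites 77.7% lay in H3K4me3 regions, a share that was not measured at promoters with the hexamer. At least 2 hexamers were in 19.1% (17.9 to 20.2) of kept and 10.9% (10.3 to 11.6) of lost sites. Gained sites were between them, at 16.4% (14.6 to 18.3). The link of hexamer and fate was seen at distal sites with a merged-peak number of 2, where the kept share was 8.21 points (6.13 to 10.3) higher with a hexamer, and the difference at 3 or more was 0.0821 points (-8.05 to 8.21) over 527 sites.

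The hexamer sat near the middle of the sites. In undifferentiated sites with one, the nearest match was a median of 27.5 bp from the centre in kept and 32.5 bp in lost sites. In differentiated sites it was 20.5 bp in kept and 21.5 bp in gained sites. The 2 medians of kept sites are over 2730 and 2786 sites with a match in the list concerned, not over the same set.

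**Figure D3:**
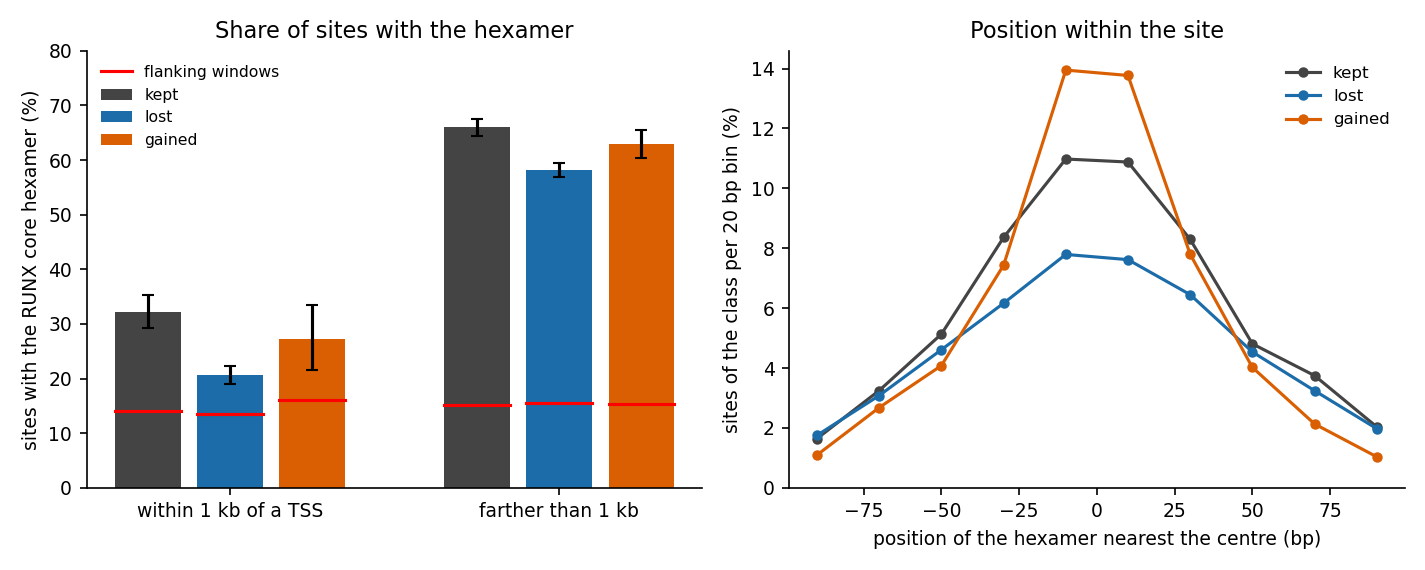
Left, percent of kept, lost and gained RUNX2 sites with the core hexamer by distance to a TSS, with exact 95% intervals and, as red lines, the share in flanking windows. Right, position of the match nearest the centre, as percent of all sites of the class in each 20 bp bin. Lost sites are lowest in both groups, at 20.6% and 58.2%.

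Dense and multiply merged distal sites had the hexamer less often. Among distal undifferentiated sites it was in 64.8% (63.5 to 66.1) of single sites, 57.8% of pairs and 50.5% (44.6 to 56.4) of clusters of 5 or more. By merged-peak number it was in 61.9% (60.9 to 62.9) of distal sites with 2 and 50.5% (46.1 to 54.8) with 3 or more. At promoters the share differed little by merged-peak number, at 23.9% (22.4 to 25.5) with 2 and 23.7% (18.05 to 30.1) with 3 or more. By cluster size promoters went the other way. There the hexamer was in 477 of 2167 single sites (20.3 to 23.8%), in 36.2% (26.5 to 46.7) of 94 sites in clusters of 4, and in 33.3% (21.4 to 47.1) of 57 sites in clusters of 5 or more, whose interval overlaps that of single sites.

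Sequences of other factors separated kept from lost sites less. The AP-1 site TGANTCA was in 13.4% (12.5 to 14.4) of kept, 11.9% (11.2 to 12.6) of lost and 10.8% (9.38 to 12.5) of gained sites, above 5.69% in the flanks of undifferentiated sites. At distal sites it was in 15.5% of kept and 15.2% of lost. Undifferentiated promoter sites had it in 4.21%, beside 4.89% of their flanks. The TEAD hexamer GGAATG was in 23.0% of kept, 21.9% of lost and 17.4% (15.6 to 19.3) of gained sites, beside 10.8% in flanks. At distal sites it was in 25.7% of kept, 26.5% of lost and 18.9% (16.9 to 21.0) of gained sites, so gained sites stood apart. The C/EBP pattern TTNCNNAA was in 40.5% (39.5 to 41.5) of distal undifferentiated sites beside 36.8% of their flanks, and in 21.9% (20.5 to 23.3) of promoter sites beside 37.6%. In gained sites of both kinds it was in 41.7% (39.3 to 44.2) beside 38.3%. The E-box CACGTG was in 4.08% of undifferentiated sites beside 2.89% in flanks. Such matches are letters in a window and not shown binding.

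Chromosomes differed in how far their number of sites fell, a measure that mixes losses with gains. The ratio of differentiated to undifferentiated RUNX2 sites ran from 0.414 on chromosome 8 to 0.685 on chromosome 14, where 241 sites became 165. On chromosome 14 73 of the 165 sites were gained, or 44.2% (36.5 to 52.2), and on chromosome 17 66 of 336, or 19.6% (15.5 to 24.3). The kept share of chromosome 14, 38.2% (32.0 to 44.6), was near that of the genome, and its gained share was the highest of all chromosomes. Chromosome 1 had a ratio of 0.615 with 41.9% (38.8 to 45.1) kept and 31.0% gained. C/EBPβ ratios were 0.739 on chromosome 14, 0.707 on chromosome 1 and 0.758 on chromosome 8, and its lowest, 0.469, was on chromosome 19. These chromosomes were singled out after their values were seen.

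**Figure D4:**
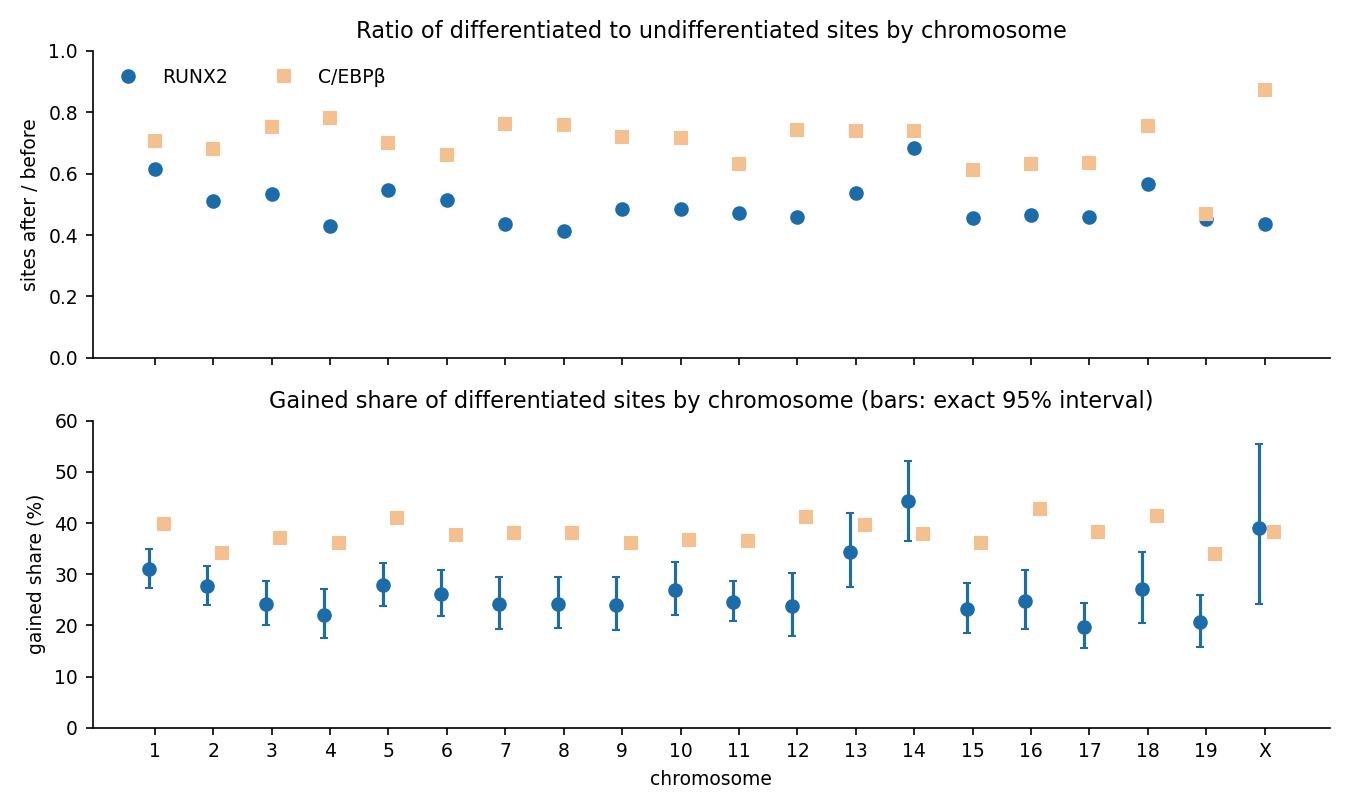
Ratio of differentiated to undifferentiated sites (top) and gained share of the differentiated sites (bottom, percent) on each chromosome, for RUNX2 (circles, exact 95% intervals at the bottom) and C/EBPβ (squares). For RUNX2 chromosome 14 is highest in both, at 0.685 and 44.2%.

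By nearest TSS within 100 kb, 10850 undifferentiated and 5266 differentiated sites had a gene, and 1811 and 1006 lay farther away. Of 22226 genes, 6068 had a RUNX2 site before and 3334 after differentiation, and 2931 in both states. Of the 6471 genes with a site in either state, 68.0% had fewer sites after differentiation, 10.0% had more and 1418 genes had the same number. Of these 1418, 1168 had the same sites and 250 had exchanged at least 1. Of the genes with a site before, 51.7% had none after, and 403 genes had a site only after.

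The share of genes that lost every site fell with the number of sites. Among 3809 genes with 1 site, 66.2% (64.7 to 67.7) had none after, among 1172 with 2 sites 37.4% (34.6 to 40.2), and among 302 with 5 to 9 sites 3.64% (1.83 to 6.42). All 32 genes with 10 or more sites had fewer afterwards and none was left without, with an exact interval up to 10.9%. Sites at genes with 1 site were kept in 30.3%, and at genes with 10 or more in 43.4%. A fall of this kind arises at any fixed rate of loss per site, so it is given as a description. Of 2938 genes with a promoter site before, 2029 had no promoter site after, and 349 of those still had a distal one.

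The most sites lost in full by any gene was 5, at 11 genes. Fos, an AP-1 subunit gene, had 5 sites before, 1 of them at the promoter, and 0 after. Id3, encoding an inhibitor of basic helix-loop-helix factors and a BMP target, had 5, with 2 at the promoter, and 0 after. Gsn, the gene of the actin-severing protein gelsolin, had 5 and 0. The same counts were found at 1500012F01Rik, 4933436C20Rik, Arhgap15, N6amt1, Slc38a4, Smad7 and Sntb2, and at Tanc1. Leaving Tanc1 aside, the differentiated C/EBPβ list had 1 to 6 sites at 9 of these genes and 0 at Gsn. With no limit of distance the differentiated RUNX2 list had 2 sites at 4933436C20Rik and 1 each at Slc38a4 and Smad7.

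Genes with RUNX2 sites only after differentiation, by nearest TSS within 100 kb, had few. Gadd45a, a stress and growth arrest gene, Haao and Kcnma1, which encodes a large-conductance potassium channel, each had 4 gained sites and 0 before. Gm10309, Mamdc2 and Sned1 had 3 each, and 0610009D07Rik, 1700112E06Rik, Abr and Arhgap22 had 2 each. Of all these gained sites 1, at Abr, was at a promoter. Some of these genes had sites before under another assignment: Haao had 8 in both states with no limit of distance, and by gene body or within 10 kb Mamdc2 had 2 and 2, Abr 1 and 2, and 1700112E06Rik 1 and 4. Kcnma1, 1700112E06Rik and Arhgap22 lie on chromosome 14, where gained sites were frequent.

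Of the genes that kept every site, those with the most before were Cd9, a tetraspanin gene, Itpr2, Kalrn, Lclat1, Plekhf1, Sdc4 and Wnt10a with 5, and Col6a2, Dut and Phf15 with 4. Lclat1 rose to 7 and Dut to 7 with gained sites, and Itpr2 and Kalrn to 6. Dut had 1 and 1 with a 50 kb limit and 0 and 0 by gene body or within 10 kb. Col6a2, a chain of type VI collagen, had 4 kept and 1 gained.

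Gene groups of osteoblast biology were read against 2 values over all genes, 68.0% with fewer sites and a kept share of 36.1% (35.2 to 37.0) of sites within 100 kb of a TSS. The groups hold 7 to 27 genes with a site, were chosen with results of these data known and were not tested. Neither value is matched for the number of sites, and both were higher at genes with several sites than at genes with 1. Fewer sites were found at 2522 of 3809 genes with 1 site before, 928 of 1172 with 2 and 432 of 510 with 3. The kept shares were 30.3%, 36.8% and 37.9%. The median number before was 1 to 3.5 in the groups and 1 over all genes with a site.

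Osteoblast transcription factors had the largest share of genes with fewer sites. Of 17 with a site in either state 16 had fewer, 0 had more, and 26.7% of their 60 sites were kept. No site was left at 8 of the 17, beside 51.7% of all genes with a site before. The group median was 3 sites before, and of all genes with 3 sites 432 of 510 had fewer. Dlx3 went from 4 to 0 and Junb, an AP-1 subunit gene, from 2 to 0. Atf4, a regulator of amino acid supply in osteoblasts, went from 2 to 0, and Sp7, the factor osterix downstream of RUNX2, from 4 to 1. By gene body or within 10 kb, however, Sp7 had 3 and 4, and the difference at Dlx3 was 0. Bach2, a leucine zipper repressor gene, had 16 and 7, all 7 kept. Dlx6 had 5 and 3 and Cebpd 4 and 2. Nfatc1 had 3 and 2 with none kept, and with a 50 kb limit its difference turned to 1. Sox9 alone had the same number, 1 in both.

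RUNX genes and their partners had the highest kept share of the groups. Their sites went from 45 to 30 and 55.6% were kept. Runx1 had 8 and 6 and Runx3 7 and 5, with promoter sites in both states at each, and with a 50 kb limit the difference at Runx1 turned to 1. Among corepressor genes, Hdac4 went from 4 to 5 and Tle4 from 5 to 3, and by gene body or within 10 kb the difference at Hdac4 turned to -1. Cbfb, the gene of the DNA-binding partner of RUNX proteins, had 2 and 0.

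Collagen and matrix assembly genes came next, with 54.5% of 66 sites kept, 13 of 20 genes lower, 5 higher and 2 with the same number. Col5a1 had 8 and 5, Col6a3 7 and 4, and Col1a2 12 and 7. Higher counts were found at Col6a2 (4 and 5), Col12a1 (3 and 4), Loxl1, encoding a collagen crosslinking oxidase (2 and 3), Col11a1 (0 and 1) and Fn1, the fibronectin gene (0 and 1). Osteonectin's gene Sparc had 3 sites and then 0, and Plod2, a collagen lysyl hydroxylase gene, from 2 to 0.

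Mineralisation genes had 30 and 13 sites with 40.0% kept, and 8 of 10 had fewer and 0 more. Mgp, an inhibitor of calcification, had 4 and 2, Slc20a1, a phosphate transporter gene, 4 and 1, and Ank, a pyrophosphate transport gene, 3 and 2. Among proteoglycan and matricellular genes 24 of 48 sites were kept. Prelp had 6 and 5, Wisp2 7 and 5, Fmod 5 and 3, Thbs1 5 and 3, and Thbs2 was the single gene with more, 3 and 5. The difference at Thbs2 was 0 with a 50 kb limit and by gene body or within 10 kb. Of protease and inhibitor genes, 8 of 14 had fewer and 3 more. Timp3, a metalloproteinase inhibitor, had 2 and 3, Timp2 3 and 2 (turned to a difference of 1 by gene body or within 10 kb), and the metalloproteinase gene Adamts9 3 and 0.

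Among genes by which osteoblasts act on osteoclasts, 9 of 11 had fewer sites. Their 38 sites went to 15 and none of the 15 was gained, beside 1337 gained of 5266 differentiated sites over all genes. Csf1, the macrophage growth factor gene, had 9 and 6, Lif, a cytokine gene, 9 and 2, Sema3a 6 and 3, and Efnb2 2 and 1. By gene body or within 10 kb the difference was 0 at Csf1 and Efnb2, -1 at Lif and -6 at Sema3a. Tnfrsf11b, the gene of osteoprotegerin, a decoy for RANKL, had 2 and 0.

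Signalling pathways varied within themselves. Wnt genes kept 26.4% of 53 sites, the lowest share of the groups, and gained 10. The effector gene Tcf7l2 had 10 and 4, Tcf7l1 4 and 1, the coreceptor gene Lrp5 4 and 2, and the receptor gene Fzd7 3 and 4, which turned to a difference of -1 by gene body or within 10 kb. BMP and TGFβ genes kept 40.6% of 64 sites. Ltbp1, encoding a latent TGFβ binding protein, had 13 and 5, the receptor gene Tgfbr3 5 and 7, Tgfbr2 5 and 4, Tgfb2 5 and 3, and the effector Smad3 6 and 6. FGF and IGF genes kept 28.9% of 38 sites, with Fgfr2 at 6 and 1, the 1 being gained, Fgf7 at 4 and 0, Igf1r at 4 and 0, Igf1 at 3 and 2 and Igf2r at 6 and 7. The difference at Igf1 turned to 1 with a 50 kb limit and by gene body. In the parathyroid hormone and vitamin D group, Rara had 11 and 3, Rxra, the shared partner of nuclear receptors, 10 and 6, Rarg 4 and 2, and Pth1r, the hormone receptor gene, 2 and 4.

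Actin and focal adhesion genes held the most sites of any group, 133 before and 72 after, with 45.9% kept and 20 of 27 genes lower. Tns3 had 17 and 11, the most of any gene before and, level with Hhat, after. Mylk, encoding myosin light chain kinase, had 15 and 9, Cald1, encoding caldesmon, 13 and 5, Palld, encoding palladin, 10 and 6, and Myh9, a nonmuscle myosin gene, 9 and 3. Cell cycle genes had 28 and 14, with 12 of 14 lower: Ccnd1 had 5 and 4, Cdkn1a 4 and 3, Ccnd3 3 and 1, Cdk1 2 and 1, and Cdk6 2 and 1. Of 7 housekeeping genes with a site 4 had fewer, such as Actb, 5 and 1, with 3 promoter sites before and 1 after. Tbp and Eef1a1 had 2 and 1, and Rpl13a 1 and 1.

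At single loci kept and lost sites interleaved. At Col1a2 a group of 5 sites stood 47.0 to 48.3 kb upstream of the start, where 2 were kept and 3 lost. The 3 lost ones lay 859, 435 and 215 bp from a differentiated site, so the stretch itself still held RUNX2 sites. The 7 kept Col1a2 sites ran from 87.4 kb upstream to the promoter, with centres that differed by 0 to 103 bp between the states. At Col1a1 the kept sites lay at 63.5, 62.4, 54.9, 7.17 and 2.48 kb upstream, and the site at 54.1 kb was lost. A gained Col1a1 site 132 bp downstream of the start had its nearest undifferentiated site 2636 bp away. Of the 8 Col1a1 sites, the lost one in an exon had the hexamer and the others did not.

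At Spp1, the gene of osteopontin, the kept sites lay 27.0, 8.87, 6.20 and 0.122 kb upstream, and lost sites lay between them at 6.62 and 1.85 kb and beyond them at 44.0 kb. These lost sites were 349, 1713 and 16938 bp from a differentiated site. At Tnfsf11, the gene of RANKL, 4 sites stood 74.97 to 76.52 kb upstream, and the kept one, 75.2 kb upstream, was flanked by lost ones on both sides. It overlapped C/EBPβ and the 3 lost ones beside it did not, while the hexamer was in the kept one and in 2 of those 3. Those 3 lay 283, 320 and 1274 bp from a differentiated site. At Sp7 the 3 lost sites stood together 10.3 to 11.2 kb upstream and the kept one 3495 bp downstream of a start.

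At Alpl, encoding the alkaline phosphatase of mineralising cells, all 6 sites had the hexamer, and 2 were kept. At Runx2 itself 2 of 4 sites were kept, at the upstream promoter, 15 bp from its start, and in an intron 56.8 kb from a start. The lost ones were a promoter site with the hexamer, 660 bp upstream of a start, and an intron site 27.9 kb from a start. By gene body or within 10 kb Runx2 had 8 and 3 sites. The Ibsp site, 43.5 kb upstream, was kept with a shift of 13 bp, and the only Mmp13 site, 29.6 kb upstream of this collagenase gene, was lost, with the nearest differentiated site 421133 bp away. Vdr, the vitamin D receptor gene, lost its 3 sites, while by gene body or within 10 kb it had 3 and 1. Dlx5 had no site in either state by nearest TSS, while its neighbour Dlx6 had 5 and 3. Cebpb had none by this rule, since a Tmem189 transcript starts 907 bp from it. The sites within 100 kb of Cebpb, 9 before and 4 after, were nearest Tmem189 (5 and 1) or Ube2v1 (4 and 3).

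**Figure D5:**
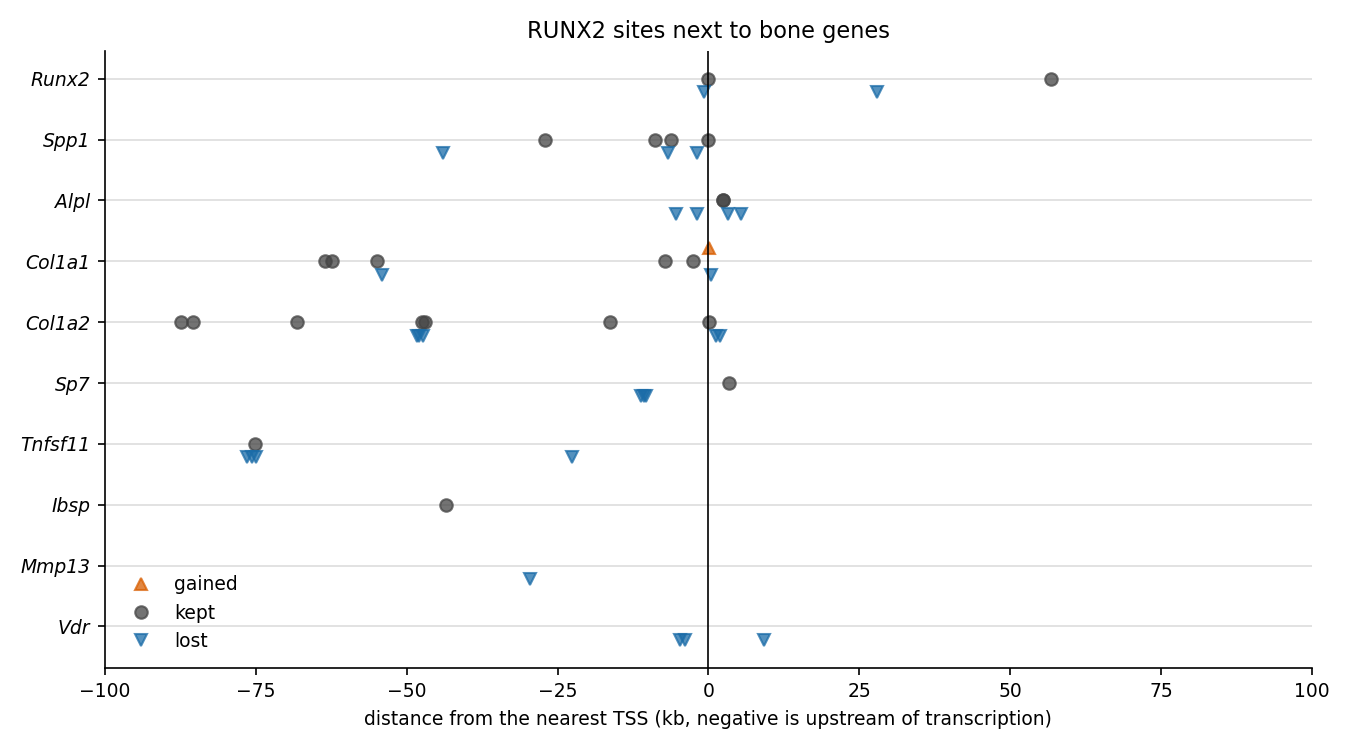
RUNX2 sites by distance from the nearest TSS (kb, negative upstream) for 10 bone genes with a site, with kept sites as circles, lost sites as triangles pointing down and the gained site as a triangle pointing up. Lost sites lie among kept ones at Spp1, Col1a1 and Col1a2, and Vdr and Mmp13 have lost sites only.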

How the data were processed

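ChIP-seq of RUNX2 in MC3T3-E1 cells was read from the deposited peak lists, 1 per state. Per the submitters' processing notes the authors used Bowtie, HOMER and mm9, with no version or threshold stated. The names of the deposited lists call them overlaps of replicates. The deposited score column holds 0 throughout the RUNX2 lists and was not used. Peaks on the mitochondrial chromosome were dropped, and 0 peaks ended beyond a chromosome of NCBIM37. Sites were compared by overlap of at least 1 bp and chained at gaps up to 10 kb. TSSs were the 70009 starts of 22226 genes of GENCODE vM1, the protein-coding ones and list members of other types, and genes were assigned by nearest TSS within 100 kb. Motifs were searched on both strands, with windows 1 kb to each side as background. Scripts in Python 3.11.15 with pandas 2.3.3, scipy 1.17.1 and statsmodels 0.14.6 were tested on simulated data. Alternatives for overlap, chaining, merged-peak number, TSS set, promoter width, gene assignment and motif were computed.

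Members and gene lists were chosen with earlier results of these data known. Named genes were those at the 10 largest clusters of each state, the 10 with most sites among genes that lost all, had none before or kept all, the 5 of each list with most sites, 12 bone genes and the 5 sites with highest merged-peak number per state. Other list members and cluster neighbours named were chosen after their values were seen. Some genes that this rule names are not reported here.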

Additional observations from a re-analysis of the deposited data

Results flagged for a closer look

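The undifferentiated RUNX2 list had 13 sites on the mitochondrial chromosome and the differentiated list had 0. They were left out of the comparisons, and they are flagged because 13 is above the 3 counts that a count of 0 allows. Both C/EBPβ lists had 0 there, and the histone lists had 0 to 2 regions each.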

How the results depend on the processing

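Requiring overlap of at least 0.5 of a site gave 34.0% of undifferentiated sites kept and 68.6% of differentiated sites already present. Counting centres within 500 bp gave 38.4% and 75.6%, and within 1 kb 40.1% and 76.6%. Only sites with 3 or more merged peaks gave 2.04% and 10.5%, median gaps of 1413 and 7281 kb, 2.86% and 0% clustered, and 28.2% and 22.4% at promoters, since few sites are left. Chains of 5 kb gave 29.4% and 19.98% of sites in clusters, and chains of 25 kb 57.4% and 44.0%. All annotated genes put 27.7% and 20.4% of sites within 1 kb of a TSS. The kept share of clustered minus single sites was 11.4 points with centres within 1 kb, where a neighbour's partner also counts. Distal minus promoter was 8.80 points with promoters of 5 kb. Kept minus lost was 8.48 points for the heptamer TGTGGTT and 7.76 points at distal sites. The other settings of these summaries moved them by less than their intervals, or by less than 1.5 times for gene counts. Of 127 named genes, the change in sites kept its direction and stayed within 1.5 times for 94 with a 50 kb limit and for 67 by gene body. By gene body or within 10 kb, the change in sites of Chmp4b, Fzd7 and Hdac4 became -1, and of Igf1, Sp7 and Timp2 1. It became 0 at other genes, among them Csf1, Dlx3, Dut and Thbs2. With a 50 kb limit it became 1 at Igf1, Nfatc1 and Runx1. No paired analysis was possible because each state has 1 merged list. Intervals cover counting error only, and unknown depth limits every comparison of list length.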
